A study of Mus musculus with 6 samples.

Results

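The genes described are the 3 vesicular glutamate transporters, *Slc17a6*, *Slc17a7* and *Slc17a8*, and 6 transcription factors of forebrain excitatory neurons, *Neurod1*, *Neurod2*, *Neurod6*, *Emx1*, *Tbr1* and *Bhlhe22*, in the ribosome-bound RNA of MeA *Kiss1* cells. They were taken as the rows of the expression table that carry these 9 gene symbols. All 9 were listed among the 13886 genes of the table, and 8 had a mean level of at least 1 on the log2 CPM scale (CPM, read counts scaled to the size of the library). The list was selected on function with the log2 CPM and the E2-minus-OVX differences of these libraries known, so their differences between the groups are given as a description.

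Vesicular glutamate transporters load glutamate into synaptic vesicles and so mark neurons that release it. *Slc17a7* (VGLUT1) predominates in cortex, hippocampus and the cortex-like nuclei of the amygdala, *Slc17a6* (VGLUT2) predominates in thalamus, hypothalamus and much of the MeA, and *Slc17a8* (VGLUT3) is found in scattered neurons that often release another transmitter. The basic helix-loop-helix (bHLH) factors of the Neurod family and *Bhlhe22*, the homeobox factor *Emx1* and the T-box factor *Tbr1* act in the generation and identity of glutamatergic neurons of the dorsal telencephalon.

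RNA was taken by RiboTag immunoprecipitation (IP) of HA-tagged ribosomes from MeA micro-punches of Kiss1Cre+/Rpl22HA+/+ female mice, in which Cre expressed from the *Kiss1* gene switches on the tagged ribosomal protein. Ovariectomy was done in every mouse at an age of 8 weeks, followed by an E2 (estradiol) capsule for 4 days and 7 days with no capsule. The OVX group then remained without E2, and the E2-treated group carried a second E2 capsule for 5 days. Each group had 3 libraries, each from 1 pool of 4 mice.

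Library size after scaling ranged from 28.1M to 34.2M reads, and the correlation of the log2 CPM across genes between libraries was 0.977 to 0.989. *Kiss1*, the gene that defines the tagged cells, was listed in all 6 libraries at a mean of 1.75 log2 CPM in OVX and 3.66 in E2-treated females (gene model ENSMUSG00000115958), although a further gene model of the same symbol is in the table and the counting may split reads between them. Markers of cells that should not carry the tag were also listed, with 8 of 8 genes each for astrocytes, oligodendrocytes, microglia, and endothelial and mural cells, and no marker was at 0 in any group. Their summed levels in OVX and E2-treated libraries were 803 to 999 and 953 to 1160 CPM for astrocytes, 1630 to 2270 and 1790 to 2500 CPM for oligodendrocytes, 121 to 161 and 123 to 140 CPM for microglia, and 155 to 295 and 181 to 238 CPM for endothelial and mural cells. Total RNA of the same punches was not analysed here, so a level in the IP does not separate RNA of the tagged cells from RNA carried over. In pooled samples of this kind, fewer cells of a type and less RNA per cell cannot be told apart.

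Across all genes, 40 of 13886, or 0.288%, passed an adjusted p of 0.05 between the groups in limma, and none of the 9 genes did. At an unadjusted p under 0.05, 6 of the 9 were counted, beside 8.56% of all genes. The mean was lower in the E2-treated group for 8 of the 9 and higher for 1, with a median difference of -0.35 on the log2 scale, whereas 48.9% of all genes had a lower mean and the median of all genes was 0.0. Since the genes were picked with this contrast in view, nothing is read from these counts.

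**Figure D1:**
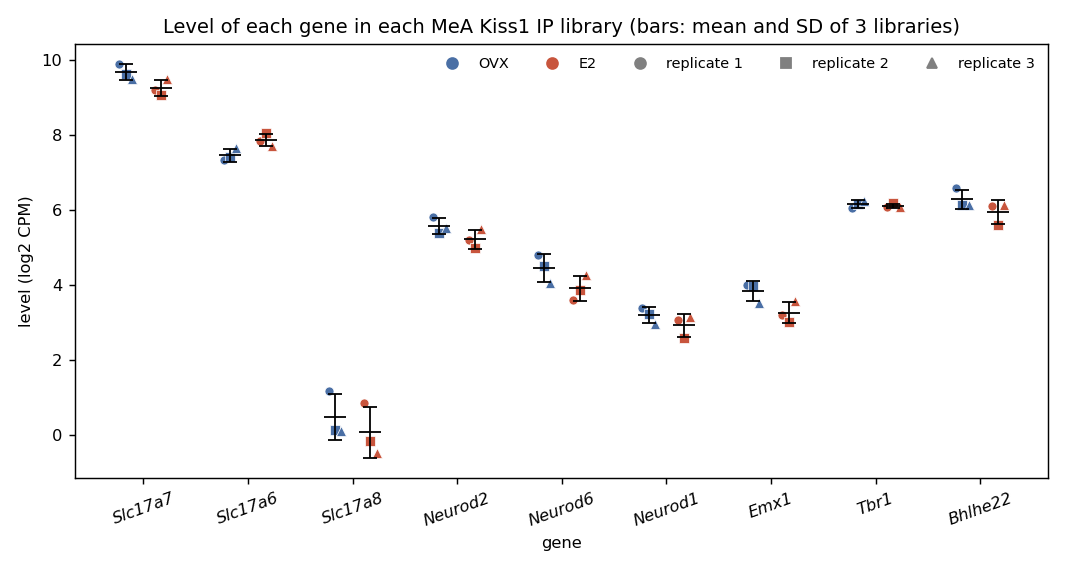
Level of the 9 genes (x axis) in log2 CPM (y axis) in the 3 OVX (blue) and 3 E2-treated (red) libraries, with the marker shape giving the replicate number and black bars the mean and SD of each group. *Slc17a7* lies between 9.07 and 9.91 and *Slc17a6* between 7.33 and 8.05, *Slc17a8* is near 0, and the groups are apart only for *Slc17a7* and *Slc17a6*.

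*Slc17a7* was the most abundant of the 9 genes and ranked 155 among all genes by mean log2 CPM. It spans chr7:45163949-45176142 on the plus strand (GRCm38) in 9 exons of its longest transcript. Its level was 9.91, 9.64 and 9.50 log2 CPM in OVX replicates 1, 2 and 3 and 9.22, 9.07 and 9.50 in E2-treated replicates 1, 2 and 3. All 3 E2-treated libraries lay below the OVX libraries, but OVX replicate 3 and E2-treated replicate 3 nearly touched, at 724 and 722 CPM. The means of the 3 libraries were 9.68 ± 0.21 (SD) for OVX and 9.26 ± 0.22 (SD) for E2-treated females, a difference of -0.42 with an SE of 0.11, which is 0.746-fold. The limma p adjusted over all genes was 0.174. Without E2-treated replicate 3 the difference was -0.54 and the adjusted p was 0.0292, so that library decided on which side of the threshold *Slc17a7* fell. Groups apart in this direction were found for 6.82% of all genes.

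*Slc17a6* lies on the same chromosome and strand at chr7:51622006-51671119 (GRCm38), 6.45 Mb from *Slc17a7*, and its longest transcript has 12 exons. It was measured at 7.33, 7.42 and 7.66 log2 CPM in the OVX libraries and at 7.84, 8.05 and 7.72 in the E2-treated libraries, in the order of replicates 1 to 3. Here the E2-treated libraries were all above the OVX libraries, and the closest were again the libraries numbered 3. The means were 7.47 ± 0.17 and 7.87 ± 0.17 (SD, n = 3 each), a difference of 0.40 with an SE of 0.09, which is 1.32-fold, and the adjusted p in limma was 0.117. Leaving out OVX replicate 3 gave 0.49 with an adjusted p in limma of 0.0405, and leaving out E2-treated replicate 3 gave 0.48 with an adjusted p of 0.0430, so each of these libraries decided the call. Of all genes, 6.85% had the E2-treated libraries all above the OVX libraries.

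The third transporter, *Slc17a8* (chr10:89574020-89621253, minus strand, GRCm38), was close to the lower end of the table, with rank 13521 by mean level. Its values of 1.19, 0.13 and 0.12 log2 CPM in OVX and 0.85, -0.16 and -0.46 in E2-treated libraries stand for 23 to 64 reads rebuilt from the log2 CPM. The groups overlapped, with replicate 1 highest in each. The difference was -0.40 with an SE of 0.50 and an adjusted p in limma of 0.899, so a difference of the size seen for the other transporters was within the SE.

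The stretches of 250 bases before the annotated RefSeq starts (GRCm38.p6) of *Slc17a7* and *Slc17a6* are shown because these transporters differed in opposite directions, together with those of *Neurod2* and *Tbr1*, factors that went with *Slc17a7* and with *Slc17a6* within the groups, as the deviations of single libraries show. They are written 5′ to 3′ on the gene's strand, ending at the base before the start. Capitals mark CAGATG (an E-box that Neurod factors bind), GGTCA (the core that nuclear receptors such as the estrogen receptors bind in pairs) and TAATTA (a homeobox core, the same on both strands), each searched on both strands.
Slc17a7, chr7:45163671-45163920, plus strand: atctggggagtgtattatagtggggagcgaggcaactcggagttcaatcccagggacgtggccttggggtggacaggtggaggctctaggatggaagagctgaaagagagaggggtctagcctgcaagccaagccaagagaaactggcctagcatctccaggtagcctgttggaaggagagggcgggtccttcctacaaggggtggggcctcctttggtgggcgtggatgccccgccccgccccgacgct
Slc17a6, chr7:51621580-51621829, plus strand: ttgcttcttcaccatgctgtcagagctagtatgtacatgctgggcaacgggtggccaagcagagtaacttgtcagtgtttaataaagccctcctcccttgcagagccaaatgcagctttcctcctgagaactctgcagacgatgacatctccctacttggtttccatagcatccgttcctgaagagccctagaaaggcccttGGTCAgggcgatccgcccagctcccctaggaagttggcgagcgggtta
Neurod2, chr11:98329646-98329895, minus strand: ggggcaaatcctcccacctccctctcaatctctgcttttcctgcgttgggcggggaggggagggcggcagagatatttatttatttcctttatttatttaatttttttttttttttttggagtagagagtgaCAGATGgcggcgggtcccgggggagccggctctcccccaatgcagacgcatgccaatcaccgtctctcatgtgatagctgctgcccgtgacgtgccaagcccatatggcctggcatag
Tbr1, chr2:61804203-61804452, plus strand: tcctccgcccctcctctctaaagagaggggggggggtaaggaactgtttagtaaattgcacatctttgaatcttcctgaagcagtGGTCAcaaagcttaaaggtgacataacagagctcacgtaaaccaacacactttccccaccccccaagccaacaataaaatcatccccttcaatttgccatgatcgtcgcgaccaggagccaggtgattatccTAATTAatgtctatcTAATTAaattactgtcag
The *Slc17a7* stretch held none of these motifs, and its GC content was 61.2%, against 53.2% for *Slc17a6*. The *Slc17a6* stretch, before the start that lies first on the chromosome, held GGTCA 48 bases before the start. A further annotated start of *Slc17a6*, whose stretch (chr7:51624387-51624636) is not printed, had CAGATG at 205 and TAATTA at 81 bases and a GC content of 41.2%. The *Neurod2* stretch held CAGATG at 118 bases, and that of *Tbr1* held GGTCA at 165 bases and TAATTA at 33 and 18 bases. Of 32851 mouse promoter stretches of the same length, 14.4% held CAGATG, 35.2% GGTCA and 4.8% TAATTA. Over every annotated start, 8 of the 9 genes had a stretch, and CAGATG occurred in 3 of the genes, GGTCA in 2 and TAATTA in 3. These are counts of genes over 10 stretches, with 2 starts each for *Slc17a6* and *Slc17a8*. The shares above are per stretch, so the counts cannot be set against them. A match describes these letters only and does not show that a factor binds there.

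Per kilobase of the longest transcript, on the scale of log2 CPM per kilobase, the order of levels was *Slc17a7* (7.85), *Slc17a6* (5.62), *Bhlhe22* (4.38), *Tbr1* (4.16), *Neurod2* (3.76), *Neurod6* (3.09), *Emx1* (2.92), *Neurod1* (1.62) and *Slc17a8* (-1.88). *Slc17a7* was above *Slc17a6* in every library, with a mean gap of 2.23 ± 0.56 (SD over 6 libraries). This SD and those of the gaps below run over both groups, so the difference between the groups is part of them. The ranges of neighbours over the libraries also did not overlap between *Slc17a6* and *Bhlhe22* (gap 1.24 ± 0.56), between *Emx1* and *Neurod1* (1.29 ± 0.21) and between *Neurod1* and *Slc17a8* (3.50 ± 0.54). They overlapped for the neighbours from *Bhlhe22* to *Emx1*, where the gaps were 0.23 ± 0.35 from *Bhlhe22* to *Tbr1*, 0.40 ± 0.31 from *Tbr1* to *Neurod2*, 0.67 ± 0.28 from *Neurod2* to *Neurod6* and 0.17 ± 0.17 from *Neurod6* to *Emx1*. The order within this middle group depended on the transcript chosen, since *Bhlhe22* and *Tbr1* changed places with the mean transcript length, and *Neurod2* and *Tbr1* took places 4 and 5 with the coding length. *Slc17a7* and *Slc17a6* were first and next in each of these orders.

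The ratio of *Slc17a7* to *Slc17a6* within a library does not depend on how libraries are scaled to each other. On the log2 scale of CPM it was 2.58, 2.22 and 1.84 in OVX replicates 1, 2 and 3 and 1.38, 1.02 and 1.78 in E2-treated replicates 1, 2 and 3. The highest E2-treated ratio, in replicate 3, was just under the lowest OVX ratio. The mean was 2.21 ± 0.37 in OVX and 1.39 ± 0.38 in E2-treated females (SD, n = 3 each), a difference of -0.82. Without each library in turn the difference ran from -1.02 to -0.64. The ratio, and the shares below that follow from it, describe a pair known beforehand to differ in opposite directions, and were not tested.

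As a share of the CPM per kilobase summed over the 3 transporters, *Slc17a7* made up 88.8%, 86.1% and 82.8% in the OVX libraries and 77.6%, 73.0% and 82.1% in the E2-treated libraries. *Slc17a6* made up 11.1%, 13.8% and 17.2% in OVX and 22.2%, 26.9% and 17.8% in E2-treated libraries. *Slc17a8* never exceeded 0.162%. The CPM summed over the 3 genes was 1120, 971 and 927 in OVX and 827, 801 and 933 in E2-treated libraries, so these sums overlapped between the groups while the *Slc17a7* shares did not.

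**Figure D2:**
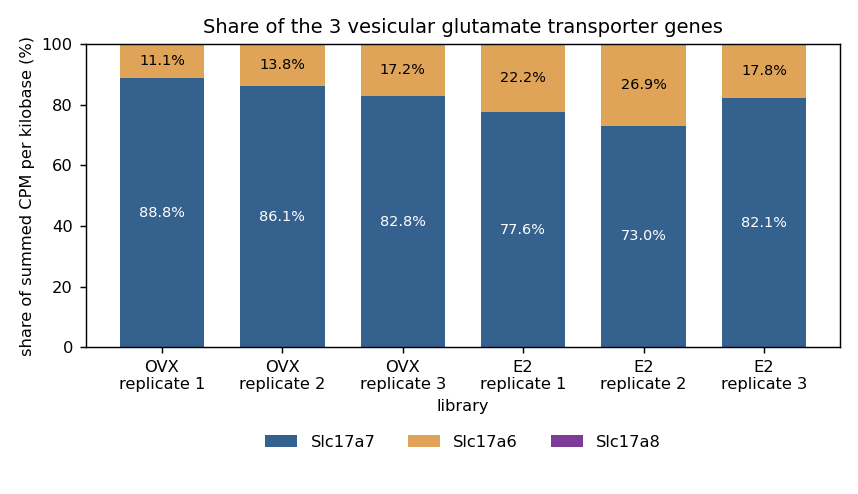
Share in percent (y axis) of *Slc17a7* (blue), *Slc17a6* (orange) and *Slc17a8* (purple, too small to see) in the summed CPM per kilobase of longest transcript, for each library (x axis). The *Slc17a7* share runs from 82.8% to 88.8% in OVX and from 73.0% to 82.1% in E2-treated libraries.

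Among the Neurod factors, *Neurod2* (chr11:98325415-98329648, minus strand, GRCm38), which acts in the maturation of excitatory neurons, was the most abundant. Its level was 5.82, 5.39 and 5.54 log2 CPM in OVX and 5.20, 5.0 and 5.50 in E2-treated libraries, and the groups overlapped through E2-treated replicate 3. The difference was -0.35 with an SE of 0.13 and an adjusted p in limma of 0.422.

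*Neurod6*, a related factor of pyramidal neurons (chr6:55677822-55681263, minus strand, GRCm38), was measured at 4.81, 4.52 and 4.07 log2 CPM in OVX and at 3.60, 3.88 and 4.28 in E2-treated libraries. OVX replicate 3 fell below E2-treated replicate 3, so the groups overlapped. The difference was -0.54 with an SE of 0.19, which is 0.686-fold, and the adjusted p in limma was 0.409.

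*Neurod1* (chr2:79452521-79456751, minus strand, GRCm38), which drives neuronal differentiation, was lower, at 3.40, 3.24 and 2.97 log2 CPM in OVX and 3.08, 2.59 and 3.15 in E2-treated libraries. These overlapping groups differed by -0.26 with an SE of 0.19 and an adjusted p in limma of 0.782. Of its exonic bases, 355 or 13.01% are shared with other genes, 201 with *Cerkl* on the same strand and 154 with a lincRNA on the opposite strand, so its reads are less certain than those of the other 8 genes, which share none.

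*Emx1* (chr6:85187438-85204462, plus strand, GRCm38), a homeobox factor that marks the dorsal telencephalic lineage, had the most negative difference of the 9 genes. It was measured at 4.02, 3.97 and 3.54 log2 CPM in OVX and at 3.20, 3.03 and 3.58 in E2-treated libraries. E2-treated replicate 3 stood just above OVX replicate 3, and the other E2-treated libraries lay below every OVX library. The difference was -0.58 with an SE of 0.18, or 0.671-fold, with an adjusted p in limma of 0.316.

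*Bhlhe22* (chr3:18054174-18057517, plus strand, GRCm38) has 1 exon and encodes a bHLH repressor of cortical and other excitatory neurons. Its level was 6.59, 6.15 and 6.14 log2 CPM in OVX and 6.12, 5.60 and 6.15 in E2-treated libraries, with OVX replicate 1 high and E2-treated replicate 2 low against 4 libraries that were nearly equal. The difference was -0.34 with an SE of 0.14 and an adjusted p in limma of 0.511.

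*Tbr1* (chr2:61802930-61814114, plus strand, GRCm38), a T-box factor of early-born cortical and amygdalar glutamatergic neurons, stood apart from the other factors in how little it varied. Its level was 6.07, 6.18 and 6.26 log2 CPM in OVX and 6.09, 6.19 and 6.09 in E2-treated libraries, a range of 0.18 over all 6. The groups overlapped, and the difference was -0.05 with an SE of 0.07 and an adjusted p in limma of 0.915.

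The spread between libraries of the same group was large for most of the 9 genes. Their within-group SD was above the median of genes within 0.5 log2 CPM of the same level for 8 genes and below it for *Tbr1* (0.08, percentile 37.1). For 5 genes it was among the top 10% of such genes, with percentiles of 98.8 for *Bhlhe22*, 97.7 for *Neurod6*, 97.2 for *Neurod2*, 96.7 for *Slc17a6* and 94.2 for *Slc17a7*. OVX replicate 1 was the highest of the 6 libraries for 7 of the 9 genes and the lowest for *Slc17a6* and *Tbr1*, and over all genes it was the highest for 19.8% and the lowest for 21.0%. E2-treated replicate 2 was the lowest for 5 genes and the highest for *Slc17a6*, beside 17% and 17.4% of all genes.

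The deviations of each library from the mean of its own group, from which the E2-minus-OVX difference is removed, went together among these genes. *Slc17a7*, *Neurod1*, *Neurod2*, *Neurod6*, *Emx1* and *Bhlhe22* deviated in the same sense, with Pearson correlations of 0.46 to 0.92 over their 15 pairs. *Slc17a6* and *Tbr1* deviated together (0.91) and against those 6 genes, with correlations of -0.97 to -0.66 over 12 pairs. For *Tbr1* they rest on small deviations, of -0.10 to 0.09 log2 CPM. *Slc17a8*, with few reads, correlated with *Slc17a7* at 0.23 and with *Slc17a6* at -0.30. Each of these values rests on 6 libraries with 4 degrees of freedom, shares the libraries' depth and scaling with the others, and was sorted into these sets after the values were seen, so it is given without a p.

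With *Slc17a7* itself, the correlation of deviations was 0.92 for *Emx1*, 0.89 for *Neurod2*, 0.88 for *Neurod1*, 0.86 for *Bhlhe22*, 0.83 for *Neurod6*, -0.88 for *Tbr1* and -0.93 for *Slc17a6*. Thus 5 of the other 8 genes were above 0.8 and 2 below -0.8, where 6.47% of all genes were above 0.8 and 6.47% below -0.8. The genes were selected with the log2 CPM of these libraries known, so nothing is read from these counts. The median correlation of *Slc17a7* with the other 8 genes was 0.85, and it was 0.75 to 0.91 without each library in turn. The libraries in which *Slc17a7* was high for their group were OVX replicate 1 and E2-treated replicate 3.

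**Figure D3:**
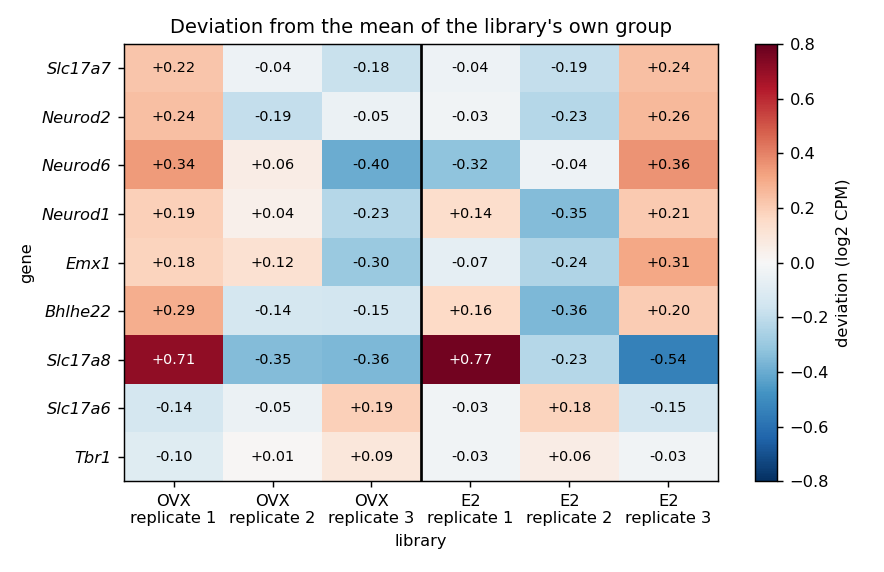
Deviation in log2 CPM (colour and printed value) of each library (columns, OVX left and E2-treated right of the line) from its own group's mean, for the 9 genes (rows). OVX replicate 1 and E2-treated replicate 3 are above their group means for the upper 6 genes and below them for *Slc17a6* and *Tbr1*.

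The same deviations were compared with lists of other genes. These lists, like *Slc17a7* itself, were chosen with earlier results of these data known. The medians are therefore a description, and nothing is read from them beside that of all genes. The median correlation with *Slc17a7* was 0.76 over 16 other cortical excitatory transcription factors and 0.59 over 16 excitatory neuron effector genes, and it was -0.01 over all genes. It was 0.08 for genes of glutamate synthesis, recycling and uptake, -0.36 for subcortical excitatory transcription factors, -0.33 for GABA neuron genes and -0.65 for the genes that mark *Kiss1* cells. With *Slc17a6* the medians were -0.74 for the cortical factors, -0.54 for the effector genes, 0.21 for the subcortical factors, 0.28 for the GABA neuron genes and 0.62 for the *Kiss1* cell genes. In the median, the list of *Kiss1* cell genes thus deviated against *Slc17a7* and with *Slc17a6*, which does not describe each gene. The list has 7 rows, because *Kiss1* is counted in both of its gene models. The further model was at -5.82 log2 CPM in OVX replicate 1. In the *Kiss1* model whose means are given above, the OVX libraries ranked in the same order as for *Slc17a7*. Its E2-treated libraries ranked in the reverse order. The median without the further model was not computed. For astrocyte markers the medians were 0.37 with *Slc17a7* and -0.64 with *Slc17a6*, and for endothelial and mural markers 0.23 and -0.50. They were -0.04 and -0.30 for oligodendrocyte markers and -0.12 and -0.18 for microglial markers. For partners and inhibitors of the bHLH factors and *Tbr1* they were -0.09 and -0.22. The part of glial and vascular markers in the members' values was not tested.

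The genes whose levels over the 6 libraries were most like that of *Slc17a7*, among 6327 genes with a mean of at least 5 log2 CPM, were *Dapk1* (Pearson r 0.998), *Sema6b* (0.997), *Agtpbp1* (0.992), *Otud7a* (0.991) and *Ift122* (0.991). *Neurod2* was in place 86 (0.941) and *Bhlhe22* in place 179 (0.900), whereas *Slc17a6* was near the opposite end, in place 6316 (-0.973). For *Slc17a6* the most alike were *Ssb* (0.997), *Ubxn1* (0.995), *Trib2* (0.993), *Gng2* (0.990) and *Nudt19* (0.990). *Tbr1* was in place 3938 for *Slc17a7* (-0.237) and in place 2606 for *Slc17a6* (0.18), so over both groups it was like neither. These correlations run over both groups and hold the group difference as well as the deviations.

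Genes that act around the transporters were next set beside them. The lists of these genes were chosen with earlier results of these data known, so their counts are a description. All 12 genes of glutamate synthesis, recycling and uptake were listed, and none passed the adjusted p of 0.05. Their median difference was 0.08, with 9 means higher and 3 lower in the E2-treated group. *Slc1a2*, the main glutamate uptake carrier of astrocytes, had the highest level (9.87 log2 CPM), and *Got1*, an aspartate aminotransferase, had the largest difference (0.21 with an SE of 0.06, adjusted p in limma 0.311). Among 12 other vesicular and SLC17 family transporters, 5 were listed and none passed. *Slc32a1*, which loads GABA into vesicles, had a level of 6.75 log2 CPM, and *Slc18a2*, the vesicular monoamine transporter, differed by 0.46 (adjusted p in limma 0.684).

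Of 21 other transcription factors of cortical excitatory neurons, 16 were listed and none passed the threshold. Their mean was lower in the E2-treated group for 13 and higher for 3, with a median difference of -0.14. *Mef2c*, a MADS-box factor of neuronal activity, was the most abundant (8.48 log2 CPM) and differed by -0.19 (adjusted p in limma 0.429). *Neurod4*, *Neurog1*, *Neurog2*, *Eomes* and *Bhlhe23* were not listed. In the list of subcortical excitatory transcription factors, 11 of 14 were listed, none passed, and the median difference was 0.30, with 9 means higher and 2 lower. This list had a median level of 1.76 log2 CPM, beside 5.44 for the other cortical factors. *Barhl2* had the highest level there (5.35 log2 CPM) and differed by 0.15. *Ebf2*, at 1.69 log2 CPM, had the largest difference among those with a mean of at least 1 (0.65, adjusted p in limma 0.517).

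Of 16 effector genes of excitatory neurons, 1 was lower in the E2-treated group past the adjusted p of 0.05, beside 0.0576% of all genes called lower. It was *Sv2b*, a synaptic vesicle protein, at 9.06, 8.94 and 8.93 log2 CPM in OVX and 8.60, 8.67 and 8.71 in E2-treated libraries. All E2-treated libraries were below the OVX libraries, and the difference was -0.32 with an SE of 0.06 and an adjusted p in limma of 0.0392. The call was made on leaving out E2-treated replicate 3 and was lost on leaving out any other single library. The median difference of the list was -0.14, with 15 means lower and 1 higher, beside 48.9% of all genes with a lower mean. All E2-treated libraries were below the OVX libraries for 8 genes of the list, and for 6.82% of all genes. The list was chosen with earlier results of these data known, so nothing is read from its counts beside these shares. *Camk2a*, a calcium-dependent kinase of excitatory synapses, was the most abundant (11.52 log2 CPM), and *Rspo2*, a secreted Wnt pathway agonist, had the largest difference (-0.48, adjusted p in limma 0.489).

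Partners, inhibitors and targets of the bHLH factors and of *Tbr1* gave 16 of 16 genes listed and none past the threshold, with a median difference of 0.04. *Grin2b*, an NMDA receptor subunit gene that Tbr1 regulates, had the highest level (8.88 log2 CPM), and *Hes5*, a repressor downstream of Notch that opposes proneural bHLH factors, had the largest difference (-0.22). For GABA neuron genes 13 of 16 were listed and none passed, with a median difference of 0.04, 8 means higher and 5 lower. *Dlx5*, a homeobox factor of GABA neurons at a level of 1.77 log2 CPM, had the largest difference (-0.40, adjusted p in limma 0.715). *Gad1* and *Gad2*, genes of GABA synthesis, were at 7.39 and 7.25 log2 CPM. They differed by 0.15 and 0.31 (adjusted p in limma 0.692 and 0.251). Thus RNA of genes that mark GABA release and of genes that mark glutamate release was listed in every library.

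**Figure D4:**
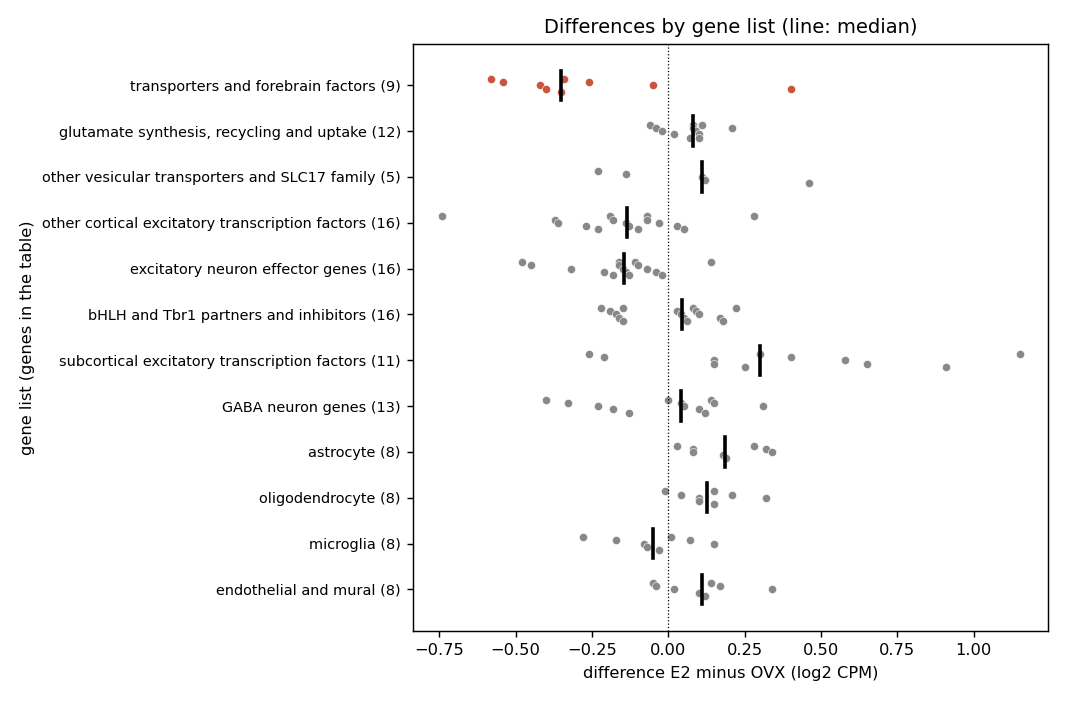
E2-minus-OVX difference in log2 CPM (x axis) of each gene (points) in the 9 transporters and factors (red) and in the other lists (grey, y axis, with the number of genes in the table), with a line at each median. The median is -0.35 for the 9 genes, -0.14 for the other cortical factors and for the effector genes, and 0.30 for the subcortical factors. The subcortical factors had a median level of 1.76 log2 CPM.

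Of the glial and vascular markers none passed the threshold. The median difference was 0.19 for astrocyte markers, with 8 of 8 means higher in the E2-treated group, 0.13 for oligodendrocyte markers (7 of 8 higher), -0.05 for microglial markers (3 of 8 higher) and 0.11 for endothelial and mural markers (6 of 8 higher). *Aldoc* was the most abundant astrocyte marker (8.44 log2 CPM), *Mbp* the most abundant of oligodendrocytes (9.68), *Csf1r* of microglia (5.64) and *Rgs5* of mural cells (6.09). The largest differences in these lists were 0.34 for *Aqp4*, 0.32 for *Mobp*, -0.28 for *Tmem119* and 0.34 for *Pecam1*. The part of these cells in the values of the 9 genes was not tested. The genes that mark *Kiss1* cells in the MeA, which the labels name as the source, included *Kiss1* itself, higher in E2-treated females by 1.91 (adjusted p in limma 0.00475), and *Esr1*, which encodes estrogen receptor alpha, with a difference of -0.70 and an SE of 0.12 (adjusted p in limma 0.0189). *Cck*, a neuropeptide gene, had the highest level of this list (9.09 log2 CPM).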

How the data were processed

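Ribosome-bound RNA of 3 OVX and 3 E2-treated pools was sequenced from unstranded poly(A) libraries, so reads of overlapping genes on opposite strands cannot be told apart. The authors trimmed the reads (Trimmomatic 0.38, per the labels), aligned them with STAR 2.6.0a to GRCm38, estimated counts with RSEM, kept protein-coding genes and deposited log2 CPM made with TMM scaling and voom. The deposited table of the authors' own comparison (log2 fold changes, moderated statistics, p-values) was not used.

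limma 3.58.1 in R 4.3.3 was run on the deposited log2 CPM of 13886 genes with treatment as the only term, a mean-variance trend (prior degrees of freedom 9.55), 2-sided p-values and Benjamini-Hochberg adjustment over all genes, with a threshold of 0.05. The trend stands in for the voom weights, which the table lacks. The replicates are pools, so p-values rest on the spread between pools and not between single mice. limma draws the spread of each gene toward that of other genes of like level. For genes of large spread the SE is then smaller than their own libraries alone would give. With a robust form of this step, the SE was 0.16 and the adjusted p in limma 0.574 for *Slc17a7*. For *Slc17a6* they were 0.10 and 0.227. An exact permutation of 3 against 3 cannot go below 0.1, and the median SE was 0.107. Library sizes and reads were rebuilt by taking the lowest value of a library as a count of 0 plus 0.5. The fit was tested on simulated data.

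The members and all lists were chosen with earlier results of these data known. From each list the text names the genes past the threshold, the gene with the highest level and the gene with the largest difference among those with a mean of at least 1 log2 CPM. It also names *Gad1* and *Gad2*, as markers of GABA neurons. Not every gene taken by the rule is reported here. The 5 genes most like *Slc17a7* and the 5 most like *Slc17a6* were taken among genes with a mean of at least 5 log2 CPM. Positions, lengths and shared exons came from GENCODE release M21 (GRCm38, the authors' assembly in another release), and promoters from RefSeq (GRCm38.p6).

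Same-numbered libraries did not deviate together (correlations of -0.02, -0.12 and -0.08), so the numbers were not taken to pair them. The alternatives were other weights, normalizations, filters and pseudocounts, a replicate block and each library left out.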

Additional observations from a re-analysis of the deposited data

How the results depend on the processing

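The differences of the 9 genes were recomputed under 16 alternatives. Of 143 values, 140 kept their direction and their side of the threshold, 0 reversed and 3 turned past the threshold, which were *Slc17a6* without OVX replicate 3 and *Slc17a6* and *Slc17a7* without E2-treated replicate 3. *Slc17a8* has no value with a mean of at least 1 log2 CPM, which it does not reach. On leaving out each library, the number of the 9 genes past the threshold was 0 to 2, and over all alternatives the adjusted p in limma was 0.0405 to 0.623 for *Slc17a6* and 0.0292 to 0.673 for *Slc17a7*. Over all genes the count of 40 was 20 to 66 on leaving out each library (21 without OVX replicate 1, 26 without E2-treated replicate 1, 20 without E2-treated replicate 2 and 66 without E2-treated replicate 3). Without the mean-variance trend it was 0, with 1017 genes at an unadjusted p under 0.05 in limma, and the cause was not tested. The 1 gene past the threshold in the lists other than the glial, vascular and *Kiss1* cell markers, *Sv2b*, was lost without the trend (0 genes) and on leaving out each library but E2-treated replicate 3 (0 to 1 genes).

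The numbers of the libraries were not taken to pair them. With the replicate number as a block, 35 genes passed over all genes, 0 of the 9 and 0 of those same lists, and the adjusted p in limma was 0.218 for *Slc17a6* and 0.294 for *Slc17a7*. *Slc17a8* had at most 64 reads in a library, and its within-group spread was above the median of genes of like level. The part of depth in its SE was not tested.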
